A study of Homo sapiens with 14 samples.

Results

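The genes described here build, anchor and crosslink the matrix that lies under an epithelium. They are FN1 (fibronectin), LOXL2 (a lysyl oxidase-like enzyme), the laminin chains LAMA3, LAMB1, LAMB3 and LAMC1, and the collagen genes COL7A1, COL17A1 and COL1A1. They were taken by symbol from the array's annotation. Of these 9 genes, 7 had a probe set of their own, and all 7 were among the 11050 of 18417 genes that passed a filter on low signal. No probe set in the annotation used here lists LAMA3 or COL17A1 as its gene, so neither has a value here.

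Laminins are trimers of an alpha, a beta and a gamma chain that self-assemble into the basement membrane, and the trimer that contains the LAMB3 chain ties epithelial cells to it at hemidesmosomes. Fibronectin is a secreted glycoprotein that binds integrins and collagen, and its rise is a classical mark of epithelial-mesenchymal transition (EMT). LOXL2 oxidizes lysines of collagen and so starts its crosslinking, and it has been linked to the stability of the Snai1 protein. COL7A1 encodes the collagen of anchoring fibrils, and COL1A1 encodes a chain of the main fibrillar collagen.

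RNA of a gastric carcinoma line was hybridized to 14 whole-transcript arrays, 1 for each condition, of which 5 came from a derivative with a Snai1-ER transgene (Snai1ER) and 9 from the parental line. Parental cells were kept at 1% oxygen (hypoxia) for 1 or 2 days with or without ANGPTL4 knockdown, were given 10 ng/mL TGFβ1 for 1 or 2 days with or without knockdown, or were left untreated for 2 days. Snai1ER cells received 20 ng/mL 4-hydroxytamoxifen (4-OHT) for 2 or 4 days with or without knockdown, or were left untreated for 4 days. For Snai1ER cells the labels name an shRNA (shANGPTL4), and for the parental arrays the sources used here do not give the knockdown method. The study's text describes siRNA in the parental line for other assays. The labels call the line MKN28 and the study's text calls it MKN74. Neither line had an untreated array with knockdown.

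Levels are log2 values after quantile normalization of the deposited arrays. A gene was called higher or lower when it differed by at least 1.5-fold (0.585 on the log2 scale), the same way on both days. This is a rule of size and not a test, because each condition had 1 array. Both days of a treatment were set against the same untreated array, of day 2 in parental and day 4 in Snai1ER cells. The 2 days are therefore not independent, and the earlier day has no untreated array of its own day. The arrays of TGFβ1 without knockdown had deposited medians of 5.23 on day 1 and 5.19 on day 2, against 5.997 to 6.16 on the other 12 arrays, so calls and main differences that involve them are also given on the deposited scale. The array of hypoxia with knockdown on day 1 stood farthest from the rest, with an SD of 0.72 about the mean of the others, against 0.27 to 0.56 for the other arrays. SNAI1 lay at 8.74 to 9.78 on the 5 Snai1ER arrays and at 5.48 to 6.07 on the 9 parental arrays. ANGPTL4 was below the filter, at 5.08 to 5.39 on the 6 arrays with knockdown and 4.97 to 5.37 on the 6 treated arrays without it, so its probe set does not show the knockdown. All 8 epithelial markers passed the filter, while 0 of 6 fibroblast, 0 of 4 endothelial and 1 of 4 blood markers did.

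The promoters of LAMB3 and FN1 are shown because these genes had the largest differences of the 7 on hypoxia and TGFβ1. The RefSeq promoter table (GRCh38.p14) holds an entry for 7 of the 9 genes. The 250 bases before the start site were searched on both strands for CAGGTG (the E-box that Snai1 can bind), ACGTG and GCGTG (cores of the hypoxia response element), TGACTCA (the AP-1 site) and CAGAC (the SMAD element). LAMB3 has 3 annotated start sites, and the window of the most upstream one, chr1:209652426-209652675 on the minus strand, holds 1 CAGGTG, given in capitals. The FN1 window, chr2:215436069-215436318 on the minus strand, holds none of the motifs.
LAMB3: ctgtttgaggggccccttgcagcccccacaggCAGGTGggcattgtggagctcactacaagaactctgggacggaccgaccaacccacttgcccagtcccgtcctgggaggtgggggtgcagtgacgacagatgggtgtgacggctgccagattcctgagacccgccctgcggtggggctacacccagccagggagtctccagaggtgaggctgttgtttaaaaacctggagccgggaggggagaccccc
FN1: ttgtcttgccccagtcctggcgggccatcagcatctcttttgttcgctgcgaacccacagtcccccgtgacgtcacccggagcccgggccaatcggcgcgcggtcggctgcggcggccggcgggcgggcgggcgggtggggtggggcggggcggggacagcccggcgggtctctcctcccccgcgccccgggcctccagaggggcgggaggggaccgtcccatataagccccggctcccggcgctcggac
The most downstream LAMB3 window holds 1 TGACTCA, at positions -67 to -61 from its start site. LAMC1 and COL7A1 each hold 1 CAGAC, and LAMB1 and COL17A1 hold none of the motifs. The LAMA3 window holds 1 CAGGTG, 2 TGACTCA and 2 CAGAC. Of all 35097 promoter windows of this length, 17.5% hold CAGGTG, 18.5% ACGTG, 32.2% GCGTG, 4.2% TGACTCA and 38.0% CAGAC. A match only gives letters in a window, and binding was not measured.

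The 7 genes differed widely in how much they varied over the 14 arrays. LOXL2 spanned 2.31 log2 units, LAMB3 2.27 and FN1 2.15, a wider span than that of 90.8%, 90.4% and 88.4% of all genes. LAMC1 (1.06) and LAMB1 (0.95) spanned less than the median gene (1.18). COL1A1 (0.60) and COL7A1 (0.55) were among the flattest genes, with 7.91% and 5.25% of genes spanning less. On the quantile-normalized scale these 3 variable genes passed the 1.5-fold rule in different treatments, LAMB3 on hypoxia, FN1 on TGFβ1 and LOXL2 on 4-OHT. These differences are part of the spans given above and are not separate from them.

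**Figure D1:**
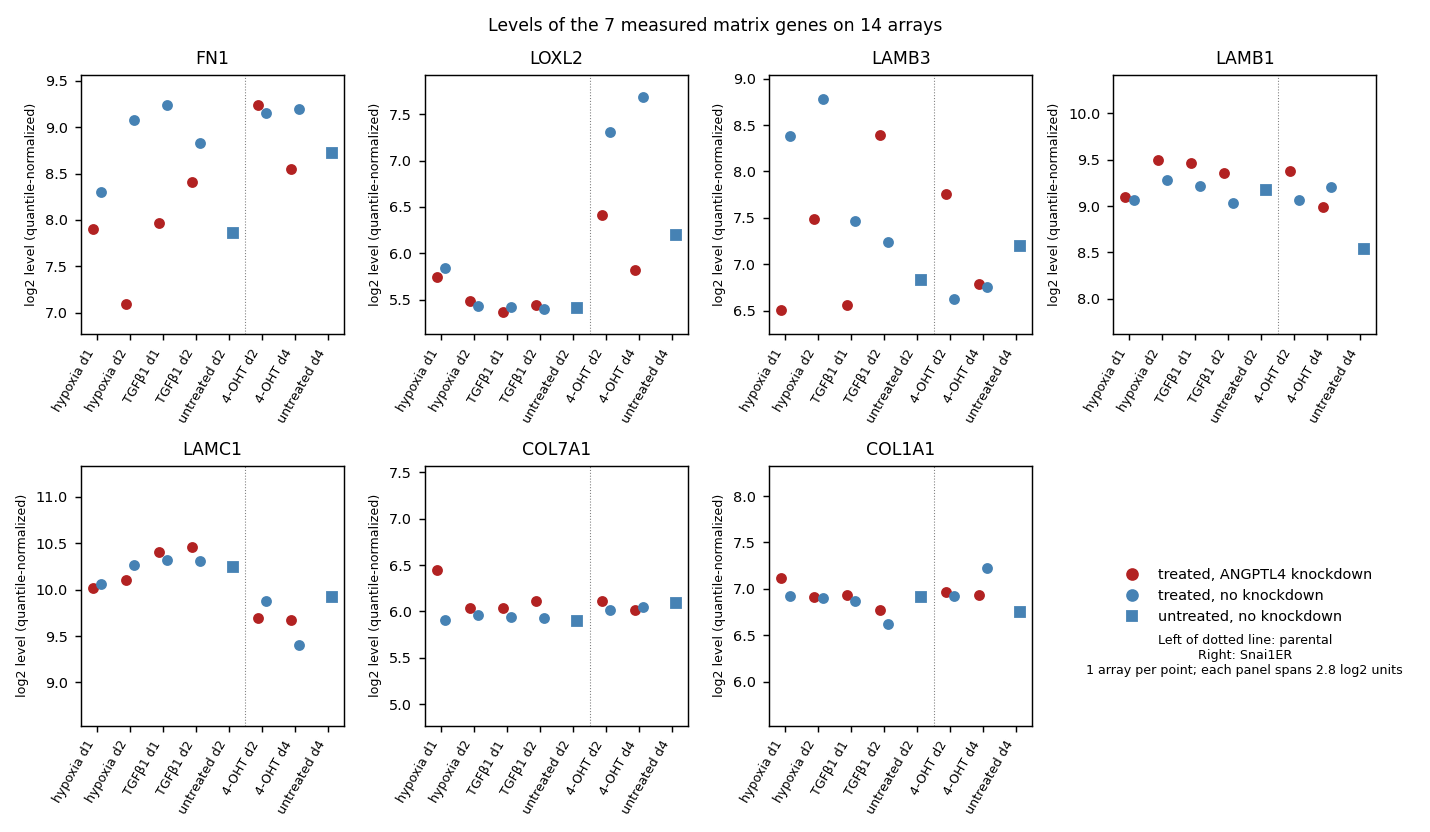
Levels of the 7 measured genes (log2, quantile-normalized, 1 point per array) by treatment and day, with knockdown in red left of no knockdown in blue, untreated arrays as squares, and parental conditions left of the dotted line. Every panel spans the same number of log2 units, so the flat course of COL7A1 and COL1A1 can be set against LOXL2, which is high on the 4-OHT arrays without knockdown (7.31 and 7.68), and LAMB3, which is high on hypoxia without knockdown (8.38 and 8.78).

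LAMB3, the beta chain of the hemidesmosomal laminin, was the only one of the 7 genes that passed the rule on hypoxia. Its level was 8.38 on day 1 and 8.78 on day 2 of hypoxia, against 6.83 in untreated parental cells. These are differences of 1.54 and 1.95, or 2.92-fold and 3.85-fold higher. Over all genes tested, 3.02% were called higher on hypoxia and 1.95% lower. Of the epithelial markers KRT19 was called higher (0.71 and 0.79) and 0 lower. The level on hypoxia day 2 was the highest of LAMB3 on the 14 arrays. In RNA of whole cultures, more expressing cells and more RNA per cell cannot be told apart.

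FN1 passed 1.5-fold on hypoxia on the later day only. Its level was 8.30 on day 1 and 9.08 on day 2, against 7.86 untreated, which gives differences of 0.44 and 1.22 (2.33-fold on day 2). LOXL2 had 5.85 and 5.43 on hypoxia and 5.41 untreated, differences of 0.43 and 0.02, at levels under that of the filter (5.90). The laminin chains LAMB1 (-0.11 and 0.10) and LAMC1 (-0.19 and 0.02) and the collagens COL7A1 (0.01 and 0.07) and COL1A1 (0.01 and -0.01) differed from untreated cells by less than the rule on both days. The median difference of the 7 genes, averaged over the days, was 0.04, against -0.03 for all genes.

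FN1 passed the rule on TGFβ1. It stood at 9.24 on day 1 and 8.83 on day 2, against 7.86 in the same untreated array that served for hypoxia. The differences of 1.38 and 0.97, or 2.61-fold and 1.96-fold, were 1.05 and 0.63 on the deposited scale and passed the rule there too. Of all genes, 2.47% were called higher on TGFβ1 and 3.27% lower. Of the 8 epithelial markers, KRT19 (-1.19 and -1.22) and CLDN4 (-1.07 and -0.96) were called lower on TGFβ1 and 0 higher, and their part in the FN1 difference was not tested. With arrays centred on their medians, CLDN4 alone was called lower and KRT8 and KRT18 higher. Because both treatments share 1 untreated array, their differences from it are not independent.

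LAMB3 was 7.47 and 7.24 on TGFβ1, differences of 0.64 and 0.41, and did not pass the rule. As deposited its level there was 7.03 and 6.75, against 6.94 untreated, so its direction was not kept on day 2. LAMB1 (0.04 and -0.15) and LAMC1 (0.07 and 0.06) differed little. LOXL2, COL7A1 and COL1A1 lay within 0.29 of the untreated array on the quantile-normalized scale, while as deposited all 3 were called lower. In that scale 32.3% of all genes were called lower on TGFβ1 and 0.452% higher, and the median of all genes shifted by -0.45 on day 1 and -0.47 on day 2. With each array centred on its own median instead, LAMB3 (0.89 and 0.65) and LAMC1 (0.63 and 0.73) were called higher along with FN1, and 22.5% of all genes were.

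LOXL2 passed the rule on 4-OHT in the Snai1ER line. Its level was 7.31 on day 2 and 7.68 on day 4, against 6.19 in untreated Snai1ER cells, differences of 1.11 and 1.49 (2.16-fold and 2.80-fold). Of all genes, 2.33% were called higher on 4-OHT and 1.21% lower. These 2 arrays held the highest LOXL2 levels of all 14. LOXL2 passed the filter through these 2 arrays, since without them its mean would lie under the filter level (5.90). On the 9 parental arrays its level (5.37 to 5.85) was under that of the filter throughout. The same 2 arrays carry its calls on 4-OHT and with knockdown, so the shares of all genes called are no gauge of these calls.

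LAMB1, a beta chain of laminins found in many basement membranes, had 9.07 and 9.21 on 4-OHT and 8.54 untreated. Its differences of 0.53 and 0.67 missed the rule on day 2 and passed it on both days when arrays were centred on their medians (0.59 and 0.64), as did 2.9% of all genes upward. FN1 was already at 8.72 in untreated Snai1ER cells and reached 9.15 and 9.19 on 4-OHT, differences of 0.43 and 0.47. LAMB3 lay below its untreated level on both days (-0.57 and -0.43), LAMC1 mainly on day 4 (-0.04 and -0.52), and COL1A1 lay above it (0.17 and 0.48), all short of the rule. COL7A1 differed by -0.07 and -0.04.

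**Figure D2:**
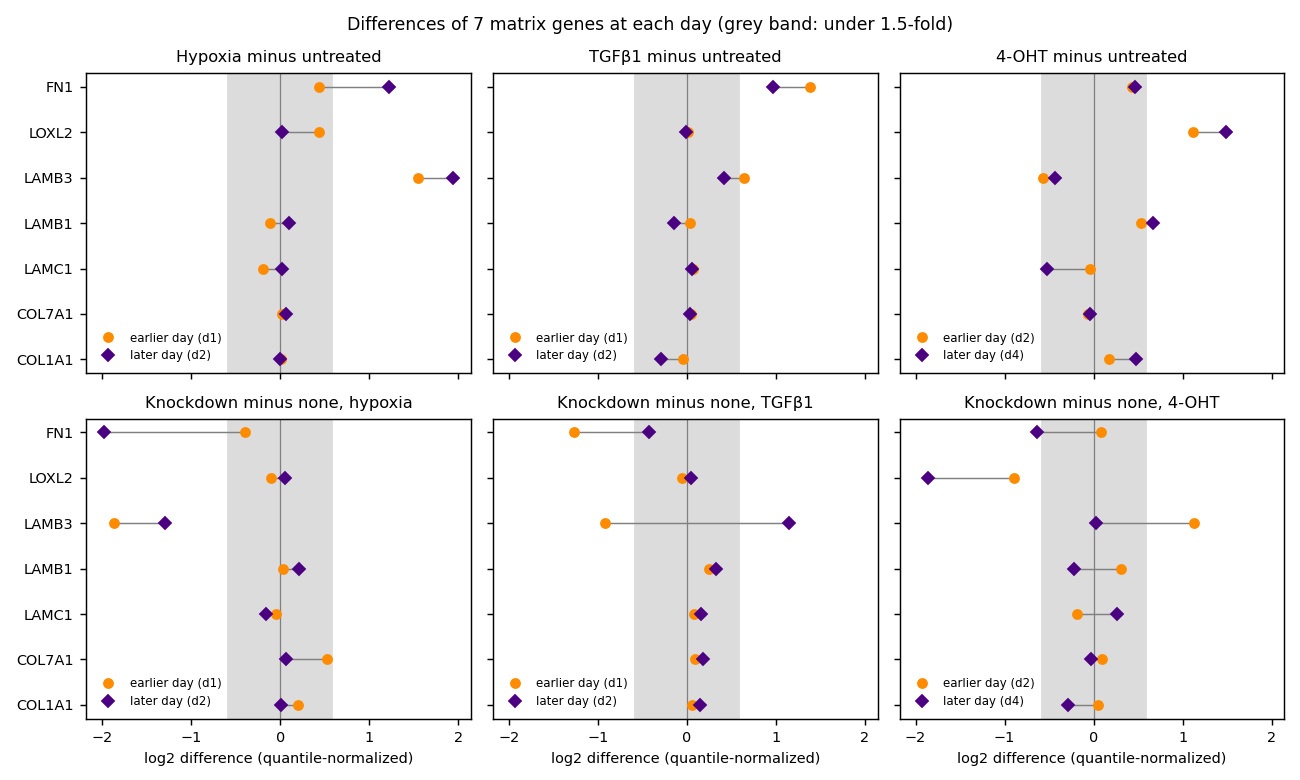
Log2 differences (quantile-normalized) of the 7 genes at the earlier (circles) and later (diamonds) day, for each treatment minus untreated (top) and for ANGPTL4 knockdown minus none (bottom), with the range under 1.5-fold in grey. LAMB3 on hypoxia, FN1 on TGFβ1 and LOXL2 on 4-OHT lie right of the band at both days, and with knockdown LAMB3 on hypoxia and LOXL2 on 4-OHT lie left of it at both days.

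Without any treatment the lines already differed in this matrix set. FN1 was 8.72 in untreated Snai1ER cells and 7.86 in untreated parental cells, 1.82-fold higher. LAMB1 was 8.54 in Snai1ER and 9.17 in parental cells, 1.55-fold lower. LOXL2 was 6.19 in Snai1ER and 5.41 in parental cells, 1.72-fold higher. Its parental level was under that of the filter, which LOXL2 passed through the Snai1ER arrays, so nothing is read from it about the line. With LOXL2 included, 3 of the 7 genes passed the 1.5-fold size in this pair of arrays. Of all genes, 5.09% were higher and 8.13% lower. Each line had 1 untreated array, of day 4 in Snai1ER and day 2 in parental cells, so line and day cannot be told apart. Of the 8 epithelial markers CLDN4 (-0.68) was lower in Snai1ER cells and 0 were higher.

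LAMC1, the gamma chain shared by most laminins, separated the lines over all conditions. It ranged from 9.40 to 9.92 on the 5 Snai1ER arrays and from 10.01 to 10.46 on the 9 parental arrays, with no overlap. For 2.69% of all genes the Snai1ER arrays all lay below the parental ones. The gap in LAMC1 was not kept as deposited or with arrays centred on their medians. LOXL2 ranged from 5.82 to 7.68 in Snai1ER and from 5.37 to 5.85 in parental cells and overlapped narrowly. On the deposited scale its Snai1ER arrays all lay above the parental ones, as in 2.48% of all genes. Because LOXL2 passed the filter through the Snai1ER arrays, nothing is read from this about the line.

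The effect of ANGPTL4 knockdown was read at the same treatment and day. On hypoxia, LAMB3 was lower with knockdown on both days. It stood at 6.51 on day 1 and 7.48 on day 2 with knockdown, against 8.38 and 8.78 without. The differences of -1.87 and -1.30 amount to 3.65-fold and 2.46-fold lower levels. Of all genes, 3.76% were called lower and 0.67% higher. With knockdown LAMB3 was 0.32 below the untreated parental array on day 1 and 0.65 above it on day 2. The day 1 difference rests on the array that stood farthest from the others, and the day 2 difference does not. Of the 8 epithelial markers, KRT8 (-2.38 and -0.78), KRT18 (-0.90 and -1.02) and CLDN7 (-0.84 and -0.75) were also called lower there and 0 higher, and their part in the LAMB3 difference was not tested.

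FN1 on hypoxia had 7.90 on day 1 and 7.09 on day 2 with knockdown, against 8.30 and 9.08 without. The day 2 value with knockdown was its lowest of the 14 arrays, and the difference there was -1.98 (3.96-fold lower), while that of day 1 was -0.40 and short of the rule. As deposited the differences were -0.60 and -1.92, which passed it, and 4.02% of all genes were called lower on that scale. COL7A1 had 6.44 with knockdown and 5.91 without on day 1 (0.53). This was its highest level, on the array that stood farthest from the others, and its other levels lay at 5.90 to 6.12. LOXL2 (-0.10 and 0.05), LAMB1 (0.03 and 0.22), LAMC1 (-0.04 and -0.16) and COL1A1 (0.20 and 0.01) changed by less than the rule.

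On TGFβ1 none of the 7 genes passed the rule with knockdown, while 1.36% of all genes were called higher and 4.48% lower. Of the epithelial markers KRT8 (-0.77 and -0.70) and KRT18 (-0.82 and -0.62) were called lower, which they were not as deposited, and CLDN4 (0.68 and 0.94) higher. FN1 had 7.97 and 8.40 with knockdown, against 9.24 and 8.83 without, differences of -1.27 and -0.42, which were -0.96 and -0.10 as deposited. LAMB3 went in opposite directions on the 2 days. It was 6.56 with knockdown and 7.47 without on day 1 (-0.92), and 8.39 with knockdown and 7.24 without on day 2 (1.15), and as deposited the differences were -0.35 and 1.73. LAMB1 (0.25 and 0.33), LAMC1 (0.08 and 0.16), COL7A1 (0.09 and 0.18), COL1A1 (0.06 and 0.14) and LOXL2 (-0.05 and 0.05) were within the rule. As deposited, LAMB1 (0.57 and 0.62) and LAMC1 (0.43 and 0.45) did not pass it either, while LOXL2 (0.93 and 1.03), COL7A1 (0.95 and 1.06) and COL1A1 (0.69 and 0.86) were called higher with knockdown, on a scale where 27.6% of all genes were higher and 0.751% lower. With arrays centred on their medians, FN1 was called lower (-1.82 and -0.98), as were 23.7% of all genes.

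On 4-OHT, LOXL2 was lower with knockdown on both days. It was 6.41 on day 2 and 5.82 on day 4 with knockdown, against 7.31 and 7.68 without. The differences of -0.89 and -1.86 amount to 1.86-fold and 3.63-fold lower levels. The day 4 level with knockdown was under that of the filter (5.90), which limits what its size can tell. LOXL2 passed the filter through the 2 arrays without knockdown. Of all genes, 7.48% were called lower and 2.19% higher. Of the 8 epithelial markers 0 were called either way, as on 4-OHT without knockdown. On day 4 alone, KRT19 (-1.72), CLDN4 (-0.97), KRT8 (-0.70) and CLDN7 (-0.63) were past 1.5-fold lower with knockdown. KRT18 (-0.58) and CLDN3 (-0.33) were lower and EPCAM (0.45) and CDH1 (0.08) higher, all short of that size. Their part in the LOXL2 difference was not tested. With knockdown, LOXL2 was 0.22 above the untreated Snai1ER array on day 2 and 0.37 below it on day 4. SNAI1 stood at 9.78 on day 2 and 8.74 on day 4 with knockdown, against 9.55 on both days without. Its difference was 0.23 on day 2 and -0.81 on day 4, and its part in the LOXL2 difference was not tested. LAMB3 was 7.76 and 6.78 with knockdown, against 6.63 and 6.76 without, differences of 1.13 and 0.02. FN1 differed by 0.08 and -0.64, LAMB1 by 0.30 and -0.22, LAMC1 by -0.19 and 0.27, COL1A1 by 0.04 and -0.29 and COL7A1 by 0.10 and -0.04, so none of these passed the rule and all 5 changed sign between the days.

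Across all 6 pairs of arrays with and without knockdown, a model with the pair as a block was fitted to all genes in limma. Its p-values measure the spread of the knockdown difference over treatments and days, not over repeated cultures. With an adjusted p threshold of 0.05, 0 of the 7 genes were called, and 0.878% of all genes were (10 higher and 87 lower), with 19% at an unadjusted p under 0.05. FN1 came nearest, at -0.77 ± 0.24 (SE, 95% interval -1.32 to -0.22), lower with knockdown in 5 of 6 pairs, with an adjusted p of 0.155 and an unadjusted p of 0.0111 in limma. With arrays centred on their medians its limma estimate was -1.04 with an adjusted p of 0.0328, and with array weights -0.93 with an adjusted p of 0.0216. In these settings FN1 was called among 1191 genes (10.8% of all) and among 1698 genes. With centred arrays the median estimate of all genes was -0.23, against -0.06 on the quantile-normalized scale. As deposited FN1 gave -0.68 with a limma adjusted p of 0.229 and was not called. Over all settings tried, its limma adjusted p ranged from 0.0216 to 0.429.

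LOXL2 gave -0.47 ± 0.25 (SE, limma adjusted p = 0.343), with its difference in the 4-OHT pairs and levels under that of the filter in the 4 parental pairs. LAMB3 gave -0.30 ± 0.39 (limma adjusted p = 0.726), lower in 3 pairs and higher in 3, and 0.02 without the hypoxia pair of day 1. Interval ends for LAMB1 (-0.13 to 0.43), LAMC1 (-0.25 to 0.29), COL7A1 (-0.12 to 0.43) and COL1A1 (-0.24 to 0.29) bounded the mean knockdown difference of these genes to less than 1.5-fold either way on the quantile-normalized scale. As deposited the upper ends for LAMB1 (0.63), COL7A1 (0.92) and COL1A1 (0.67) lay past 1.5-fold, and LAMC1 alone (-0.26 to 0.52) was so bounded. On that scale COL7A1 was higher with knockdown in 6 of 6 pairs, by 0.49 with a limma adjusted p of 0.258, where the median of all genes moved by 0.12.

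**Figure D3:**
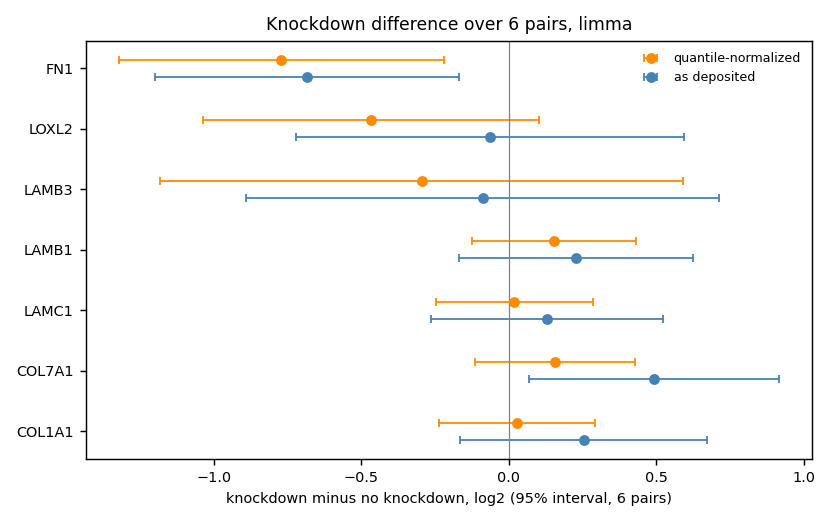
Mean knockdown difference (knockdown minus none, log2) of the 7 genes over 6 pairs with 95% limma intervals, on the quantile-normalized (orange) and deposited (blue) scales. FN1 lies at -0.77 and -0.68 with unadjusted intervals below 0 on both scales, and was called on neither after adjustment. The intervals of LOXL2, LAMB3, LAMB1, LAMC1 and COL1A1 include 0 on both. That of COL7A1 includes 0 on the quantile-normalized scale (-0.12 to 0.43) and lies above 0 as deposited (0.07 to 0.92), without a call.

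Whether the knockdown difference depended on the line was tested with an interaction term, 2 Snai1ER pairs minus 4 parental pairs. For LOXL2 the term (-1.36) set Snai1ER pairs against parental pairs whose levels all lay under that of the filter, so nothing is read from it about the line. LAMB3 gave 1.31 (limma adjusted p = 0.575) and FN1 0.74 (limma adjusted p = 0.622). None of the 7 genes was called, nor was any gene of the 11050 (0%), while 10.7% had an unadjusted p under 0.05. A moderated F test over hypoxia, TGFβ1 and 4-OHT gave an adjusted limma p of 0.502 for LAMB3, and called no gene at all, with 9.3% of genes at an unadjusted p under 0.05. A dependence of the LAMB3 difference on line or treatment was therefore not detectable after adjustment with these arrays.

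The genes around this set were examined through 7 lists with 112 further matrix genes, of which 56 passed the filter. On hypoxia 5 of the 56 were called higher (8.93%) and 1 lower (1.79%), against 3.02% and 1.95% of all genes. The prolyl hydroxylase subunits P4HA1 (1.78 and 1.70) and P4HA2 (1.56 and 1.62), which stabilize the collagen helix, were higher. So were ITGA5 (2.10 and 2.49), the alpha chain of the fibronectin receptor, ITGB4 (0.66 and 0.88), the laminin-binding integrin chain of hemidesmosomes, and PLAT (0.68 and 0.89), a plasminogen activator. THBS1, a matricellular glycoprotein, was lower (-0.97 and -0.59), a call lost as deposited. No other laminin chain, basement membrane gene or collagen of the lists passed the rule.

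On TGFβ1, THBS1 (1.59 and 1.48), SERPINE2 (1.40 and 1.42), a serine protease inhibitor, and ITGA2 (1.25 and 1.21), a collagen receptor chain, were higher. COL12A1 (-1.57 and -1.64) and PLAT (-0.62 and -0.59) were lower. These 5 of 56 genes were called in the same direction as deposited, where 27 of the 56 were called lower (48.2%, against 32.3% of all genes). On 4-OHT the lysyl oxidase-like gene LOXL4 (0.75 and 0.73) and LTBP1 (0.87 and 1.36), which binds latent TGFβ to the matrix, were higher, as LOXL2 was, and ITGA2 (-1.54 and -1.71) and the hemidesmosome linker DST (-0.65 and -2.10) were lower. Each direction held 3.57% of the 56 genes, against 2.33% and 1.21% of all genes.

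With knockdown on hypoxia, 5 of the 56 genes were lower (8.93%) and 0 higher, against 3.76% and 0.67% of all genes. They were P4HA2 (-1.39 and -0.69), P4HB (-0.94 and -0.66), its partner subunit, the lysyl hydroxylase PLOD3 (-1.24 and -0.88), PLAT (-1.97 and -1.76) and ITGB4 (-1.26 and -0.61), the last not called as deposited. With knockdown on TGFβ1, THBS1 (-2.40 and -1.05) and SERPINE2 (-1.99 and -0.63) were lower and the heparan sulfate proteoglycan SDC1 (0.71 and 0.59) and ADAM9 (0.71 and 0.65) higher, 3.57% of the 56 in each direction against 4.48% of all genes lower and 1.36% higher. The SERPINE2 call was lost as deposited, where 23 of the 56 genes were called higher (41.1%, against 27.6% of all genes).

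With knockdown on 4-OHT, 5 of the 56 genes were higher and 5 lower (8.93% each, against 2.19% and 7.48% of all genes). SPP1 (osteopontin) showed the largest difference among them, -3.14 and -5.26. LTBP1 (-1.43 and -1.43) and LOXL4 (-0.88 and -1.02), both higher on 4-OHT without knockdown, were lower with it, as were SERPINE2 (-0.69 and -0.89) and the membrane metalloprotease MMP14 (-0.65 and -0.67). ITGA2 (0.92 and 1.33), THBS1 (0.76 and 1.14), the crosslinking transglutaminase TGM2 (0.78 and 1.11), the metalloprotease ADAM9 (0.64 and 1.11) and the cytolinker PLEC (0.81 and 0.82) were higher. Over the 6 pairs, 0 of the 56 genes were called by limma, with 10 (17.9%) at an unadjusted p under 0.05, against 19% of all genes. With arrays centred on their medians 8 were called (14.3%), against 10.8% of all genes.

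**Figure D4:**
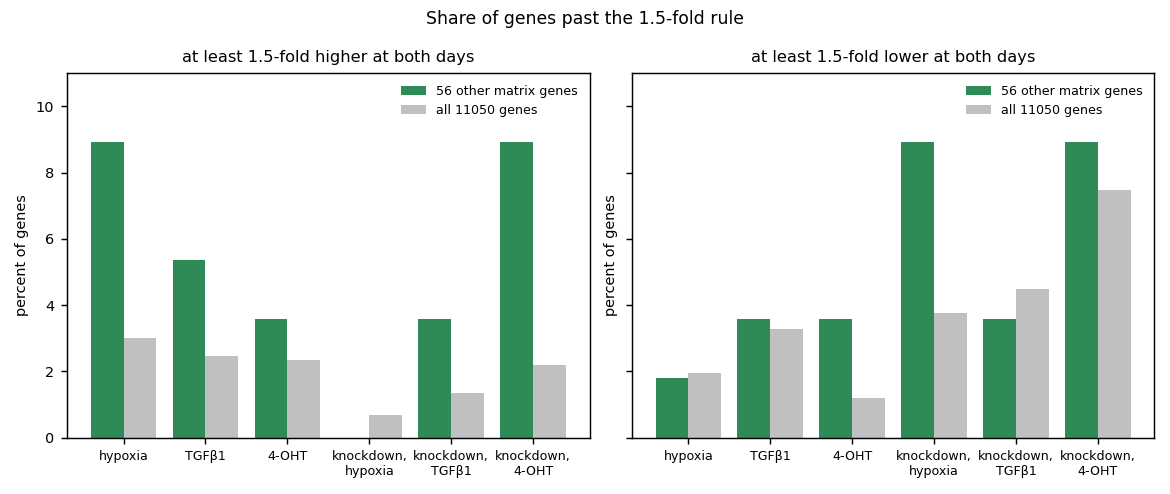
Percent of the 56 other matrix genes (green) and of all 11050 genes (grey) that were at least 1.5-fold higher (left) or lower (right) at both days in each comparison, on the quantile-normalized scale. The green bar stands at 8.93% for genes higher on hypoxia, for genes lower with knockdown on hypoxia, and for both directions with knockdown on 4-OHT.

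Between untreated lines, 8 of the 56 genes were higher in Snai1ER cells (14.3%) and 3 lower (5.36%), against 5.09% and 8.13% of all genes. THBS1 (1.95), ITGA2 (0.95), P4HA2 (0.88), PXDN (0.76), TGM2 (0.75), PLOD3 (0.69), PCOLCE2 (0.60) and TIMP1 (0.59) were higher. SPP1 (-2.04), COL12A1 (-0.995) and the laminin alpha chain LAMA2 (-0.71) were lower. LAMA2 was the only one of the 5 further laminin chains past the filter that passed the rule in any comparison on the quantile-normalized scale.

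Likeness of course was described by Pearson's r over the 14 arrays, which share lines, treatments and untreated arrays and are not independent. The genes most like LOXL2 were RAB13 (0.96), MSI1 (0.94) and SHKBP1 (0.93). LAMC1 was most like GLB1L2 (0.95), SYK (0.95) and CEMIP2 (0.94), and FN1 most like LRRC75A (0.90), ORAI1 (0.86) and PLEK2 (0.85). For LAMB3 they were SRPRA, RAET1L and CCL3, each at 0.85. For LAMB1, the highest value was 0.81 (CDK5RAP3), for COL7A1 0.96 (CCDC187) and for COL1A1 0.91 (PRRX2).

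Among the 21 pairs of the 7 genes, LOXL2 and LAMC1 gave the strongest relation on the quantile-normalized scale, -0.81 (-0.64 as deposited). LOXL2 was under the level of the filter on all 9 parental arrays and on 1 of the 5 Snai1ER arrays. Nothing is therefore read from its relations about the line. LAMC1 and COL1A1 gave -0.61 (-0.26 as deposited), LOXL2 and COL1A1 0.52, and FN1 and LOXL2 0.50. FN1 and LAMB3 gave 0.16. COL7A1 and COL1A1 gave 0.42 on the quantile-normalized scale and 0.89 as deposited, the strongest relation on that scale, where both were low on the TGFβ1 arrays with lower medians. COL1A1 carried 1 identical deposited value on 3 arrays and COL7A1 on 4 arrays, and the other 5 genes had no repeated value.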

How the data were processed

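RNA of 14 conditions was hybridized to GeneChip Human Gene ST arrays. The deposited table holds log2 expression values. Of the steps behind them, the submitters' processing notes name RMA and Partek, with no versions. Of the 33297 probe sets, 29.6% have an identical value on 2 or more arrays. Probe sets with 1 gene symbol (19460) were averaged per gene, which gave 18417 genes, and 11050 with a mean at or above the 40th percentile (5.90) were kept.

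The arrays were quantile-normalized anew with limma 3.58.1 in R 4.3.3, because 2 TGFβ1 arrays lay lower. Changes by treatment were read on both days against the 1 untreated array of the same line. Changes by knockdown were read at the same treatment and day. Both used a 1.5-fold rule at both time points. Knockdown over 6 pairs was fitted with lmFit and eBayes, with treatment and day as a block (5 residual degrees of freedom, 4 with the line interaction and 3 for the F test over treatments), with Benjamini-Hochberg adjustment over 11050 genes. The pairing comes from the design. The fit over 6 pairs was tested on simulated data and the 1.5-fold rule on planted differences. The fits of line and treatment were not tested in this way. The number of arrays limits the precision, and nothing says that arrays came from separate cultures.

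The genes, the lists, the motifs and the tests were chosen with earlier results of these data known. Other matrix genes were named when called in a comparison, at most 4 per list and comparison by the largest mean difference, and for each gene the 3 most similar genes by Pearson's r. Symbols were updated through the gene ID for 19429 probe sets. Promoter sequences are from RefSeq (GRCh38.p14). Alternatives covered the scale, the filter, the fold rule, single time points, the probe set rule, the limma settings and each pair left out.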

Additional observations from a re-analysis of the deposited data

Results flagged for a closer look

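The mean knockdown difference of LAMB3 was below 0 on hypoxia and above 0 on 4-OHT. It averaged -1.58 on hypoxia (-1.87 on day 1 and -1.30 on day 2) and 0.58 on 4-OHT (1.13 on day 2 and 0.02 on day 4), with knockdown minus none in each. The contrast between these treatments was not tested by itself. The limma F test over all 3 treatments gave an unadjusted p of 0.0294 and an adjusted p of 0.502. The value on day 4 of 4-OHT is close to 0 and was -0.02 with arrays centred on their medians, so the direction on 4-OHT rests on day 2. Hypoxia and 4-OHT were also given to different lines, so line and treatment cannot be told apart.

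LAMC1 averaged -0.10 with knockdown on hypoxia (-0.04 and -0.16) and 0.12 with knockdown on TGFβ1 (0.08 and 0.16). All 4 differences are under 1.5-fold, the contrast was not tested by itself, and the limma F test over treatments gave an adjusted p of 0.913.

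THBS1, of the other matrix genes, averaged -1.72 with knockdown on TGFβ1 (-2.40 and -1.05) and 0.95 with knockdown on 4-OHT (0.76 and 1.14). The contrast was not tested by itself. The limma F test gave an unadjusted p of 0.00421 and an adjusted p of 0.344. The line differs between these treatments too and cannot be told apart from the treatment.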

How the results depend on the processing

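Of the settings tried for the 7 genes, 645 values kept their call or lack of one, and no called value changed sign. A further 19 were called only under the alternative, and 4 were called there against the sign of an uncalled value, LOXL2 (-0.91) and COL7A1 (-0.78) on TGFβ1 as deposited, LOXL2 (0.98) with knockdown on TGFβ1 as deposited, and LAMB3 (-0.92) with knockdown on TGFβ1 on the earlier day alone. Another 5 lost their call. Each of the 7 genes had 1 probe set, so the filter and probe set settings could not change their differences under the fold rule. Part of the 645 was therefore fixed in advance. The filter at the 60th percentile left out LOXL2, COL7A1 and COL1A1. They had no value or call in that setting and are not counted there, and this includes the LOXL2 calls on 4-OHT and with knockdown. The 2-fold rule ended the calls of FN1 on TGFβ1, of LOXL2 with knockdown on 4-OHT, and of FN1, LOXL2 and LAMB1 between untreated lines. Counts over all genes moved more, and the cause was not tested. Under the 2-fold rule they were 110 on hypoxia (550 with 1.5-fold), 153 on TGFβ1 (634), 96 on 4-OHT (391), 117, 86 and 289 with knockdown on hypoxia, TGFβ1 and 4-OHT (490, 645 and 1068), and 392 between untreated lines (1460). With the earlier or the later day alone they were 856 and 1143 on hypoxia, 610 and 2320 on 4-OHT, 4083 and 1557 with knockdown on hypoxia, 1591 and 1380 with knockdown on TGFβ1, and 2276 and 3915 with knockdown on 4-OHT. TGFβ1 gave 3615 genes as deposited, 2696 with arrays centred on their medians, 1342 without a filter and 415 with a filter at the 60th percentile, which gave 258 on 4-OHT. Knockdown on TGFβ1 gave 3130, 2686 and 1152 in the first 3 of these settings.

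The limma fit over 6 pairs called 97 genes, 14 as deposited, 1191 with centred arrays and 1698 with array weights. Without the block of pairs it called 55, and FN1 then had a limma adjusted p of 0.238. Without the block and as deposited it called 4. Leaving out 1 pair gave 0 to 427 genes, 427 without hypoxia day 1 and 0 without hypoxia day 2. FN1 then lay between -0.94 and -0.53 (limma adjusted p 0.114 to 0.322), LOXL2 between -0.57 and -0.19 (-0.19 without 4-OHT day 4), and LAMB3 between -0.59 and 0.02. Alternatives chosen after seeing the data left out both TGFβ1 pairs, which gave 2 genes on either scale, and FN1 at -0.73. The line interaction (0 genes) gave 5 as deposited, 7 without a filter, 2 with the stricter filter, 3 with array weights and 0 to 36 without 1 pair. The treatment F test (0 genes) gave 1 without a filter and 0 to 41 without 1 pair. LOXL2 and COL7A1 lie near the filter level (means of 5.93 and 6.04), where signal over background limits what can be read.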
